A study of Homo sapiens with 15 samples.

Results

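The RNA of 10 chemokine genes was followed through the 5 groups of an RNA-Seq study of nuclear EGFR in MDA-MB-468 cells, an established human triple-negative breast cancer line with abundant EGFR. The genes were CXCL1, CXCL2, CXCL3, CXCL8, CXCL10, CXCL16, CX3CL1, CCL2, CCL5 and CCL20. They were picked by symbol, with earlier results of these data known, and mapped to the Ensembl IDs of the deposited count table, 10 of its 61552 genes. In the drug experiment, cells were serum starved for 12 h, given 10 ng/mL EGF, and either left at that (EGF) or treated for 12 h with 10 μM cSNX1.3 (labelled cSNX) or 15 μM erlotinib (labelled ERL). cSNX1.3 is a peptide made to stop EGFR from binding Sorting Nexin 1 and so to keep EGFR out of the nucleus, erlotinib inhibits the EGFR tyrosine kinase, and no library of a control peptide was analysed here. In the line experiment, an inducible lentiviral shRNA against the untranslated end of the EGFR message, switched on with 1 mM IPTG for 2 days and kept on, lowered endogenous EGFR in both groups, and EGFR-GFP that was wildtype (WT, labelled shEGFR-WT) or mutated in its nuclear localization signal (ΔNLS, labelled shEGFR-NLS) was transfected before EGF treatment. Each group had 3 replicates, 15 libraries in all, and nothing in the labels says that replicates were separate cultures, so p-values measure the spread between these samples, which may be technical. Because each line was made by its own transfection, differences between WT and ΔNLS other than the mutation cannot be told apart from it.

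Chemokines are small secreted or membrane-anchored proteins that draw leukocytes along a gradient by way of G protein-coupled receptors. CXCL1, CXCL2, CXCL3 and CXCL8 (interleukin-8) carry the ELR motif, bind CXCR2 and recruit mainly neutrophils. CXCL10 binds CXCR3 on activated T cells and NK cells and is a classical interferon-induced gene, CX3CL1 (fractalkine) and CXCL16 are made as transmembrane proteins that sheddases cut loose for CX3CR1 and CXCR6, CCL2 and CCL20 bind CCR2 and CCR6, and CCL5 draws T cells and NK cells. In epithelial tumor cells the ELR chemokines and CCL20 are known targets of NF-κB and of growth factor signalling through ERK and AP-1, and their messages are short-lived.

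The libraries held 22915676 to 35900649 counts. Epithelial markers were high in every group (EPCAM 334 to 490 CPM, a count made comparable between libraries by edgeR's TMM scaling), and leukocytes left little trace: PTPRC, the pan-leukocyte CD45, had at most 7 counts in any library, MS4A1 and the NK receptor gene KLRD1 had 0 in all 15, and CD14 was the exception at 9.05 to 41.9 CPM. EGFR itself stood at 4730 ± 360 CPM (mean ± SD, n = 3 in each group) in EGF libraries, at 6139 ± 371 in cSNX1.3 libraries and at 4704 ± 246 in erlotinib libraries, against 1339 ± 168 in WT and 1725 ± 33.6 in ΔNLS. Reads of the introduced EGFR are counted on the same gene, so these values check neither the knockdown nor the mutation.

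With EGF, 3 of the 10 chemokine genes were far above the rest. Per length, as TPM (counts per exonic base, scaled to a common total), the order was CXCL16 (69.4 ± 2.53), CX3CL1 (54.0 ± 2.87) and CXCL8 (28.1 ± 1.12), and then CXCL1 (3.02 ± 0.603), CXCL10 (2.12 ± 0.670), CXCL2 (1.38 ± 0.924), CCL20 (1.11 ± 0.485), CCL5 (0.864 ± 0.232), CXCL3 (0.488 ± 0.214) and CCL2 (0.0751 ± 0.0777; SD, n = 3 each). The first 3 were apart from each other and from the rest by more than their SDs, whereas neighbours from CXCL1 down to CXCL3 were within overlapping SDs. With the longest transcript in place of all exonic bases, CXCL2 and CCL20 changed places and no other member did. At these depths the lower genes rested on few counts per library: no library held more than 54 counts of CXCL1, 20 of CXCL2, 20 of CXCL3, 15 of CCL5 or 16 of CCL20. CCL2 had 2, 0 and 1 counts in the EGF libraries and 0 in the 12 others, a count that allows up to 3 counts per library, so no change in it was detectable at this depth.

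Most of the CXC genes sit in clusters on the long arm of chromosome 4 (GRCh38, GENCODE 44). CXCL8 (chr4:73740519-73743716, plus strand), CXCL1 (chr4:73869393-73871308, plus strand), CXCL3 (chr4:74036589-74038807, minus strand) and CXCL2 (chr4:74097040-74099196, minus strand) lie within 359 kb. CXCL10 (chr4:76021118-76023497, minus strand) lies apart from them, between the genes of the other CXCR3 ligands, CXCL9 and CXCL11, in a stretch of 40.1 kb. CCL20 is on chromosome 2, CX3CL1 on 16, and CXCL16, CCL2 and CCL5 on 17. CXCL1, CXCL2 and CXCL3 are recent copies of each other. Of the 50-base stretches of their longest coding transcripts, 5.33% in CXCL1, 10.1% in CXCL2 and 5.26% in CXCL3 occurred in another of the 3, so some of their reads could have been left out or divided, while none of the other members' stretches occurred in another member.

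Promoter windows (250 bases before to 50 after the RefSeq start site, GRCh38.p14) were at hand for 6 members, CXCL1, CXCL2, CXCL3, CXCL8, CXCL10 and CCL20, and not for CXCL16, CX3CL1, CCL2 or CCL5. On both strands they were searched for a κB-type motif written GGNNNTTCC, for the AP-1 motif TGANTCA, for an interferon response type motif written GAAANNGAAA and for TATAAA. The windows of CXCL8 and CXCL10 are shown whole, with matches in capitals, because CXCL10 was called in cSNX1.3 vs. EGF and in ΔNLS vs. WT and CXCL8 in neither. They lie at chr4:73740319-73740618 on the plus strand and chr4:76023448-76023747 on the minus strand.
CXCL8: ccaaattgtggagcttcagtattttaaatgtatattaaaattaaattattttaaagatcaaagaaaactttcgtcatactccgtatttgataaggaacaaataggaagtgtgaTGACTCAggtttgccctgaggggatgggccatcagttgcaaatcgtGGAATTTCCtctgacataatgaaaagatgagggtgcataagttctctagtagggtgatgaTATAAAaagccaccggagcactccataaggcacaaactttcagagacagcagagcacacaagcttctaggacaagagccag
CXCL10: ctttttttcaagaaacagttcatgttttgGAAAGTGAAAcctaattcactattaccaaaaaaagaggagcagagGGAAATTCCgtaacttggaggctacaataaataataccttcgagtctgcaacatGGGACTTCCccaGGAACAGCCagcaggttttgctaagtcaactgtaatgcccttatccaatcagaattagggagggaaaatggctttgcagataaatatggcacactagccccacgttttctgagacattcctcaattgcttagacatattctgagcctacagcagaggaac

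In CXCL8 the capitals mark, in order, an AP-1 match that begins 137 bases before the start, a κB-type match at 91 and TATAAA at 31. In CXCL10 they mark the interferon response type match at 221 bases before the start and κB-type matches at 176, 122 and, read on the opposite strand, 110. The κB-type motif was found in the windows of 6 of the 6 members and in 20.1% of all 35116 windows. AP-1 was found in CXCL8 alone of the 6 (7.71% of all windows), the interferon response type in CXCL10 alone (3.57%), and TATAAA in CXCL8 and CCL20 (11.5%). A match describes these letters only, and these data do not show whether a factor binds there.

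The 60 bases around the first κB-type match of the other members show how alike the CXCL1, CXCL2 and CXCL3 promoters are. They are at chr4:73869305-73869364 (plus strand), chr4:74099223-74099282 (minus strand), chr4:74038718-74038777 (minus strand) and, for CCL20, chr2:227813753-227813812 (plus strand), with κB-type matches in capitals.
CXCL1: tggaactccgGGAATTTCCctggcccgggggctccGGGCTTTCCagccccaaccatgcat
CXCL2: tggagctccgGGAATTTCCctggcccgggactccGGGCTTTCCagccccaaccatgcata
CXCL3: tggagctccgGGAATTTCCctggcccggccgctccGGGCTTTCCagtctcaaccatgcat
CCL20: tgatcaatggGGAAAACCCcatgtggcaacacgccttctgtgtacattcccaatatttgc

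CXCL1, CXCL2 and CXCL3 share the same pair of κB-type matches. Compared position by position with no gaps, CXCL3 had the same base as CXCL1 at 55 of 60 positions and CXCL2 at 39. The stretch between the matches is shorter in CXCL2, whose first match begins at 77 against 78 in CXCL1, with the second at 53 in both. Later positions of CXCL2 are therefore out of register, and the 39 does not show that CXCL2 is less alike than CXCL3. In CCL20 the match is read on the opposite strand. Because these windows are copies of one another, they are not separate occurrences of the motif.

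**Figure D1:**
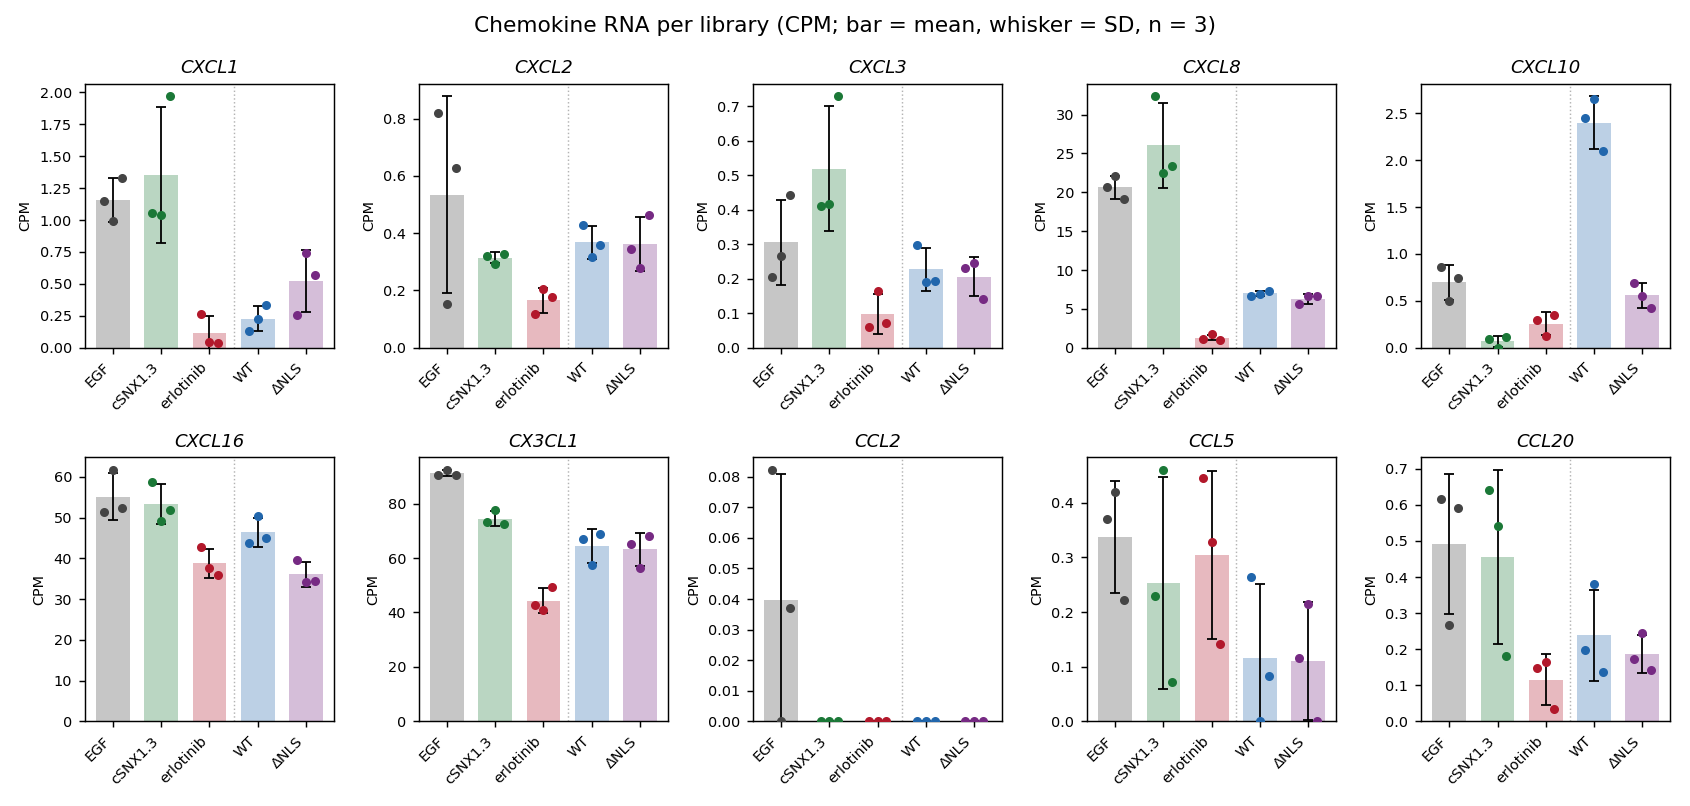
Scaled counts (CPM, edgeR's TMM scale, each panel with its own linear axis from 0) of the 10 chemokine genes in each library, grouped as EGF, cSNX1.3 and erlotinib (drug experiment) and WT and ΔNLS (line experiment, right of the dotted line). Points are libraries, bars means and whiskers SDs (n = 3); CXCL8 and CX3CL1 are lowest with erlotinib, and CXCL10 is highest in WT and lowest with cSNX1.3.

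Erlotinib vs. EGF asks what blocking the EGFR kinase did to these genes. CXCL8, CXCL1, CCL20 and CXCL3 had the largest falls, with CXCL8 down 16.2-fold in pooled counts and CXCL1 down 9.13-fold. CX3CL1 and CXCL16 fell less, CXCL10 fell too, and CCL5 was not called. Of the 8 members that passed the filter on low counts, 7 were called, all lower, by edgeR's quasi-likelihood test at a Benjamini-Hochberg adjusted p under 0.05, with a median log2 fold change of -1.52. Over all genes tested 44.0% were called and 21.2% were called lower, with a median of 0.01. Members with few counts passed the filter through the groups in which they were high, so this share describes the members tested and not all 10. In bulk RNA, fewer expressing cells and less RNA per cell cannot be told apart.

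CXCL8 stood at 20.7, 22.1 and 19.1 CPM in the EGF libraries and at 1.16, 1.72 and 1.02 CPM in the erlotinib libraries. No erlotinib library came near an EGF library, and the gene was at its lowest of the 5 groups. Its log2 fold change was -4.00 (standard error 0.19, edgeR's adjusted p = 2.70e-10). Pooled over replicates, 1600 counts with EGF faced 110 with erlotinib (95% interval of the fold 13.4 to 19.9, which like all such intervals here covers counting error only).

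CXCL1, another neutrophil attractant, had 28, 26 and 36 counts in the EGF libraries and 9, 1 and 1 in the erlotinib libraries. The groups did not overlap, and 9 of the 11 erlotinib counts came from replicate 1. Its log2 fold change was -3.16 (standard error 0.53, edgeR's adjusted p = 0.000187) and was -4.75 without erlotinib replicate 1. The pooled fold of 9.13 had a 95% interval of 4.87 to 18.9.

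CXCL3 had 5, 7 and 12 counts in the EGF libraries and 2, 4 and 2 in the erlotinib libraries (log2 fold change -1.67, standard error 0.62, edgeR's adjusted p = 0.0387). The call rests on single libraries: the edgeR adjusted p was 0.175 without EGF replicate 3, 0.128 without erlotinib replicate 1 and 0.111 without erlotinib replicate 3. DESeq2 gave 0.0638. CXCL2 had 20, 4 and 17 counts in the EGF libraries and 4, 5 and 5 in the erlotinib libraries. It did not pass the filter of the 9 drug libraries and so was not tested there, and in the fit of all 15 libraries its log2 fold change was -1.68 (edgeR's adjusted p = 0.0117).

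CCL20, the ligand that draws CCR6-bearing T cells and dendritic cells, had 15, 7 and 16 counts in the EGF libraries and 5, 4 and 1 in the erlotinib libraries. The groups did not overlap (log2 fold change -2.04, standard error 0.63, edgeR's adjusted p = 0.0152). Without EGF replicate 1, EGF replicate 3 or erlotinib replicate 3 the edgeR adjusted p was 0.0557, 0.0535 and 0.0679, so this call too depends on single libraries.

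CXCL10 had 21, 13 and 20 counts in the EGF libraries and 10, 3 and 10 in the erlotinib libraries. The closest libraries were 3 counts apart (log2 fold change -1.38, standard error 0.48, edgeR's adjusted p = 0.0294). Without EGF replicate 1, EGF replicate 3, erlotinib replicate 1 or erlotinib replicate 2 the edgeR adjusted p was 0.111, 0.0773, 0.0606 and 0.112, and DESeq2 with all libraries gave 0.0514.

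The membrane-anchored chemokines were measured with far more counts. CX3CL1 stood at 90.6, 92.3 and 90.5 CPM with EGF and at 42.9, 40.8 and 49.4 CPM with erlotinib (log2 fold change -1.03, standard error 0.09, edgeR's adjusted p = 2.18e-07). CXCL16 stood at 51.4, 61.7 and 52.3 CPM with EGF and at 42.7, 37.7 and 35.9 CPM with erlotinib (log2 fold change -0.50, standard error 0.10, edgeR's adjusted p = 0.000898). In neither gene did a library of one group reach the other. CCL5, a ligand for T cells and NK cells, had 9, 11 and 6 counts with EGF and 15, 8 and 4 with erlotinib. Its groups overlapped, and the log2 fold change of -0.11 had a 95% interval of -1.31 to 1.10 (edgeR's adjusted p = 0.896), wide enough to hold a change in either direction.

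Markers of other cells moved in this comparison. The summed CPM of 6 leukocyte markers ran from 13.8 to 18.8 with EGF and from 38.0 to 41.8 with erlotinib, of which CD14 made up 16.1 ± 2.53 and 40.3 ± 2.06 CPM, and PTPRC had at most 3 counts in the libraries of both groups. The 4 NK cell markers summed to 0.780 to 1.72 and 2.78 to 3.35 CPM, nearly all of it NCAM1 (1.19 ± 0.366 and 3.05 ± 0.321 CPM), with KLRD1 at 0 and at most 4 counts of NKG7 or PRF1 in any of these libraries. Of 3 fibroblast markers the 1 tested fell (log2 fold change -0.39). Of 3 endothelial markers 1 rose (2.38) and 2 were not called. Of the 5 epithelial markers 3 fell, KRT5 (log2 fold change -1.23), KRT8 (-1.20) and KRT18 (-1.14), while CDH1, the E-cadherin gene, rose (0.47) and EPCAM was not called (-0.12). Over all genes tested 44.0% were called and 21.2% were called lower. The summed epithelial markers ran from 10997 to 14713 CPM with EGF and from 5282 to 6095 with erlotinib, and their part in the chemokine results was not tested.

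cSNX1.3 vs. EGF asks what the peptide directed at the nuclear route of EGFR did. CXCL10 was the single member called, and it fell. Of the 8 members tested, 1 was called, against 6.07% of all genes called and 2.69% called lower. As with erlotinib, members with few counts passed the filter through the groups in which they were high, CXCL10 through EGF. The median log2 fold change was -0.09 over the members and 0.00 over all genes.

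CXCL10 had 21, 13 and 20 counts in the EGF libraries and 2, 0 and 3 in the cSNX1.3 libraries. Every EGF library was above every cSNX1.3 library. The log2 fold change was -3.27 (standard error 0.64, edgeR's adjusted p = 0.00505), and leaving out each library in turn gave -3.86 to -2.73 with an adjusted p of 0.00283 to 0.0306. Pooled, 54 counts with EGF faced 5 with cSNX1.3, a 10.2-fold lower level whose counting interval runs from 4.11 to 32.7. DESeq2 gave this gene no adjusted p, because its own filter on mean counts set it aside.

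No fall of an ELR chemokine was detected with cSNX1.3. CXCL8 stood at 32.4, 22.4 and 23.3 CPM with cSNX1.3 and at 20.7, 22.1 and 19.1 CPM with EGF. The groups did not overlap but came within 1 CPM of each other, and the difference (log2 fold change 0.34, standard error 0.15, edgeR's adjusted p = 0.208) did not pass the test. CXCL1 (0.24, 95% interval -0.57 to 1.05) and CXCL3 (0.77, -0.23 to 1.77) had overlapping groups and were not called, with cSNX1.3 replicate 3 the highest library of both. CXCL2, not tested here, had 20, 4 and 17 counts with EGF and 7, 7 and 9 with cSNX1.3, and in the fit of all 15 libraries its log2 fold change was -0.75 (edgeR's adjusted p = 0.394).

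CX3CL1 lay close to the threshold. It stood at 73.1, 77.6 and 72.5 CPM with cSNX1.3, below the 90.5 to 92.3 CPM of the EGF libraries. Its log2 fold change of -0.29 (standard error 0.09) had an edgeR adjusted p of 0.0648, while DESeq2 (0.0369), a fit of these 6 libraries (0.0334) and a fit of all 15 (0.0454) called it. CXCL16 (58.8, 49.2 and 51.9 CPM with cSNX1.3) had a log2 fold change of -0.05 with a 95% interval of -0.26 to 0.17 and overlapping groups. CCL5 (-0.43, 95% interval -1.72 to 0.86) and CCL20 (-0.14, -1.23 to 0.95) were not called either, and their intervals are too wide to tell a change from none. The leukocyte markers summed to 9.41 to 13.4 CPM, the NK cell markers to 1.04 to 1.60 and the epithelial markers to 13688 to 17615 with cSNX1.3, and their part in these results was not tested. No fibroblast or endothelial marker that was tested was called.

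ΔNLS vs. WT asks what the mutated nuclear localization signal did. CXCL10 fell 4.21-fold in pooled counts, CXCL16 fell slightly, and CXCL8 and CX3CL1 had narrow intervals around 0. Of the 6 members that passed the filter of the line libraries (CXCL3, CCL2, CCL5 and CCL20 did not), 2 were called, both lower, against 41.4% of all genes called and 21.0% called lower. The median log2 fold change was -0.09 over the members and 0.01 over all genes.

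CXCL10 stood at 2.45, 2.66 and 2.10 CPM in WT and at 0.692, 0.554 and 0.427 CPM in ΔNLS. The WT libraries had 74, 84 and 76 counts, more than any other group, and no ΔNLS library had more than 24. The log2 fold change was -2.08 (standard error 0.24, edgeR's adjusted p = 4.18e-06), and leaving out each library in turn gave -2.26 to -1.93. The interval of the pooled fold ran from 3.12 to 5.77.

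CXCL16 stood at 43.8, 50.3 and 44.9 CPM in WT and at 39.7, 34.2 and 34.5 CPM in ΔNLS. The groups did not overlap (log2 fold change -0.36, standard error 0.08, edgeR's adjusted p = 0.00277). CXCL8 stood at 6.68, 6.93 and 7.33 CPM in WT and at 5.56, 6.65 and 6.68 CPM in ΔNLS, with a log2 fold change of -0.15 and a 95% interval of -0.41 to 0.11. CX3CL1 overlapped as well, at -0.03 with an interval of -0.21 to 0.15, as did CXCL2 at -0.04 with an interval of -0.87 to 0.79.

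CXCL1 was the member with a positive difference. It had 4, 7 and 12 counts in WT and 9, 24 and 16 in ΔNLS, which overlapped. The log2 fold change of 1.14 (standard error 0.47) had an edgeR adjusted p of 0.0660, and of 0.0233 without ΔNLS replicate 1 and 0.0445 without WT replicate 3. CCL5 (8, 0 and 3 counts in WT, 4, 7 and 0 in ΔNLS), CCL20 (6, 12 and 5, against 6, 8 and 4) and CXCL3 (9, 6 and 7, against 8, 8 and 4) were too sparse to be tested in this fit.

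**Figure D2:**
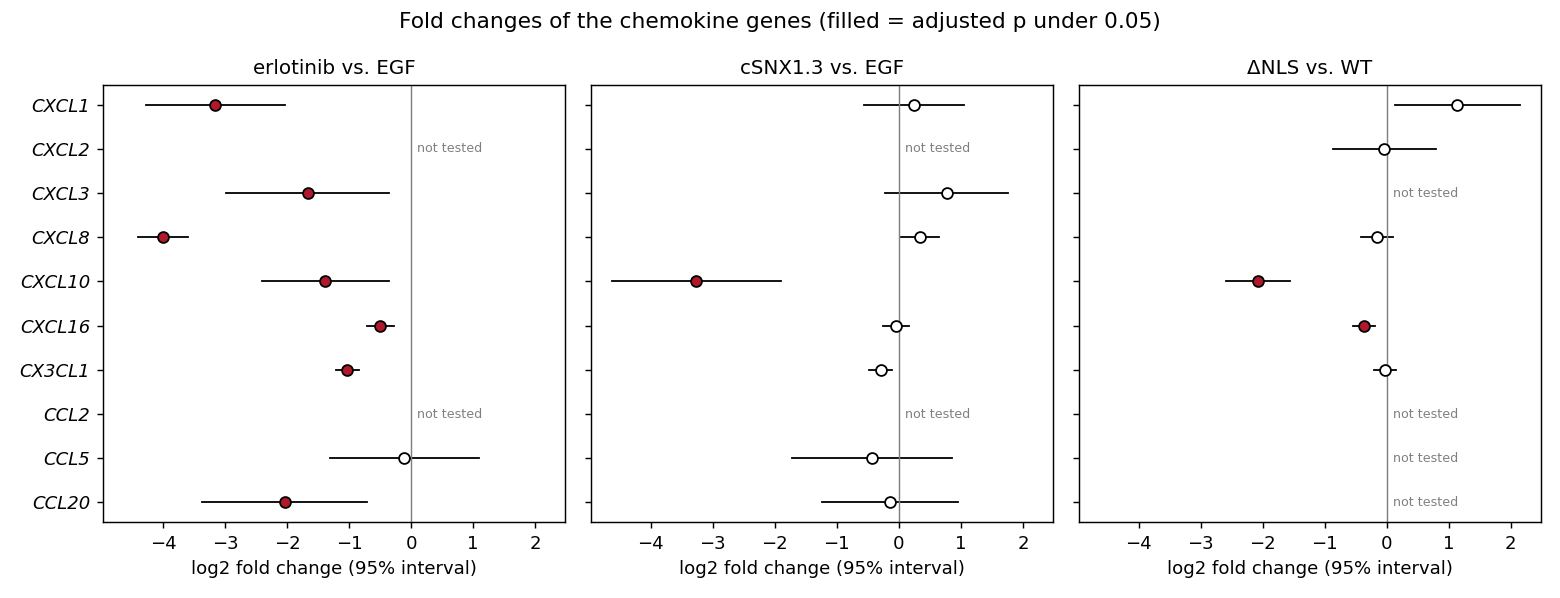
Log2 fold changes of the 10 chemokine genes with 95% intervals in erlotinib vs. EGF, cSNX1.3 vs. EGF and ΔNLS vs. WT, from edgeR. Filled points have an adjusted p under 0.05 and genes marked as not tested did not pass the filter on low counts; 7 points are filled with erlotinib, 1 with cSNX1.3 and 2 in ΔNLS, and CXCL10 is filled and negative in all 3 panels.

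CXCL10 was called lower by edgeR in each of these comparisons. By DESeq2 it was called in ΔNLS alone, with the erlotinib call lost and no adjusted p given for cSNX1.3, and 4 of the 6 fits without 1 EGF or erlotinib library lost the erlotinib call too. The erlotinib and cSNX1.3 comparisons share the same 3 EGF libraries, so they are not separate measurements of its level with EGF, whereas the line comparison shares no library with them. Its neighbours on chromosome 4 also bind CXCR3. CXCL11 fell from 1.69 ± 0.301 CPM in WT to 0.314 ± 0.0347 in ΔNLS (SD over 3 libraries; log2 fold change -2.42, standard error 0.29, edgeR's adjusted p = 6.16e-06). CXCL9, named after its values were seen, stood at 1.58 ± 0.142 in WT and 0.273 ± 0.0232 CPM in ΔNLS (log2 fold change -2.52). In the drug experiment both were near the limit of detection and not tested: CXCL9 had 0 to 5 counts per library, and CXCL11 had 17 counts over the EGF libraries, 5 over the cSNX1.3 libraries and 24 over the erlotinib libraries.

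The other chemokine genes were mostly silent. Of 38 that were listed 36 were found in the count table, of which 28 had at most 3 counts in every library, and 21 had none. In ΔNLS vs. WT 5 of the 6 that were tested fell and none rose (median log2 fold change -1.68), against 21.0% of all genes called lower. CXCL9 and CXCL11 passed the filter on low counts through WT, where they were high. The share therefore describes only the 6 genes tested. CCL17, named after its values were seen, had a positive difference that was not called (0.41, 95% interval -0.49 to 1.31). Those that fell included CXCL17, a mucosal chemokine (-2.02, edgeR's adjusted p = 2.81e-09), and CCL22, a CCR4 ligand (-1.33, edgeR's adjusted p = 5.13e-09). In each of the 5 the mean of WT was also above that of the EGF group. CCL22 averaged 49.0 CPM in WT, 19.4 in ΔNLS and 20.9 with EGF, and CXCL17 12.4, 3.05 and 1.13. Levels across the 2 experiments were not tested. The 3 tested in the drug experiment differed from each other: erlotinib lowered CCL22 (log2 fold change -2.21) and raised CCL28 (1.14), and cSNX1.3 lowered CCL28 (-0.52, edgeR's adjusted p = 0.0277), while CXCL17 was not called.

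**Figure D3:**
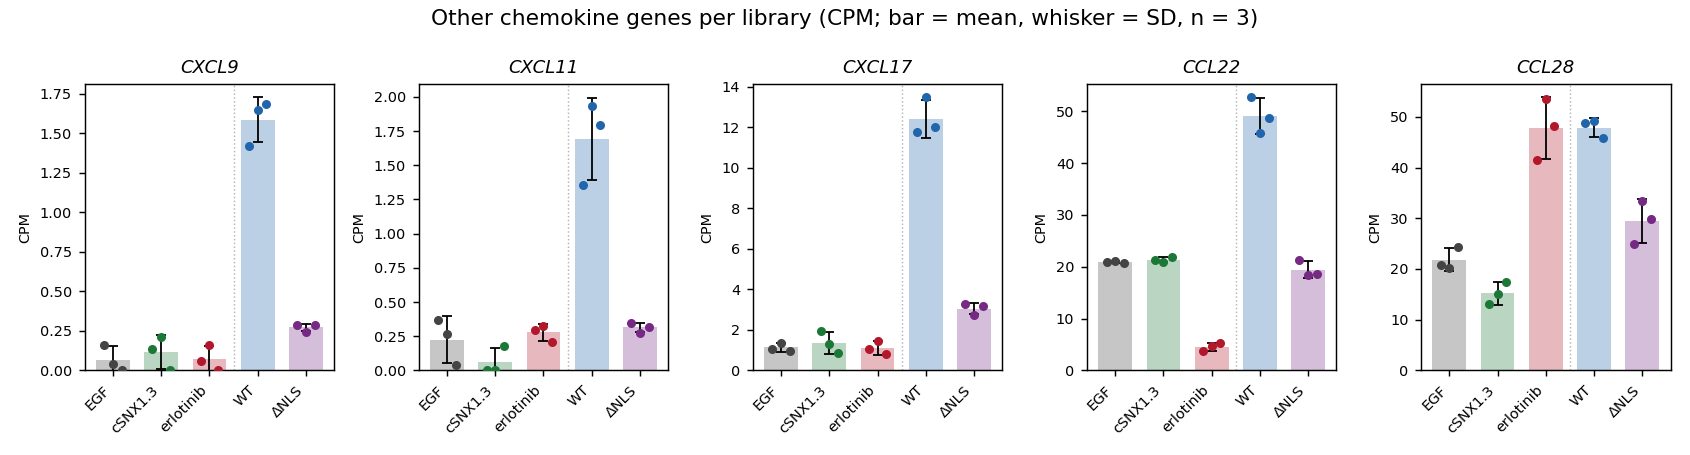
Scaled counts (CPM, linear axes from 0) of CXCL9, CXCL11, CXCL17, CCL22 and CCL28, the chemokine genes besides the members that were called in ΔNLS vs. WT, in each library of the 5 groups. Points are libraries, bars means and whiskers SDs (n = 3). The WT libraries are above the ΔNLS libraries in each panel, and CCL22 is lowest and CCL28 high with erlotinib.

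Set against each other directly, cSNX1.3 and erlotinib left different chemokine levels. The treatments were given at different doses, so each value below is a difference between these libraries and not between equal doses. In cSNX1.3 vs. erlotinib 7 of 8 members tested were called, against 56.1% of all genes. The filter ran over the 9 drug libraries, so members with few counts could pass it through EGF or through the higher group. CXCL10, with 2, 0 and 3 counts with cSNX1.3 and 10, 3 and 10 with erlotinib, passed it through EGF. This share therefore describes only the members tested. The ELR chemokines tested and CCL20 were higher with cSNX1.3, with log2 fold changes of 4.33 for CXCL8 (standard error 0.19, edgeR's adjusted p = 4.69e-11), 3.40 for CXCL1, 2.44 for CXCL3 and 1.89 for CCL20. CX3CL1 (0.74) and CXCL16 (0.45) were also higher, CXCL10 was lower (-1.89, standard error 0.74, edgeR's adjusted p = 0.0396) and CCL5 was not called (-0.32). The calls of CXCL10 and CCL20 depend on single libraries: without erlotinib replicate 3, cSNX1.3 replicate 1 or cSNX1.3 replicate 2 the edgeR adjusted p was 0.124, 0.0544 and 0.143 for CXCL10 and 0.0815, 0.0738 and 0.0686 for CCL20, and without erlotinib replicate 1 it was 0.0945 for CXCL10.

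The effect of the mutation was compared with each drug effect in a fit of all 15 libraries. The filter ran over these libraries, so members with few counts, such as CXCL1, could pass it through the groups in which they were high. The shares called here therefore describe only the members tested. Minus the erlotinib effect, the ΔNLS effect was 4.30 on the log2 scale for CXCL1 (standard error 0.76, edgeR's adjusted p = 0.000101), 3.86 for CXCL8 (0.23, 5.68e-11) and 1.01 for CX3CL1 (0.13, 1.77e-06). These 3 of 9 members tested were called, against 44.7% of all genes, and CXCL10 (-0.70, 95% interval -1.82 to 0.43) and CXCL16 (0.15, -0.14 to 0.44) were not. For CXCL8 and CX3CL1 the ΔNLS effects were small (-0.15 and -0.03) and the erlotinib effects were falls (-4.00 and -1.03). Minus the cSNX1.3 effect, 0 of 9 members were called by edgeR or by DESeq2, against 23.1% of all genes by edgeR, and 3 had an unadjusted p under 0.05: CXCL8 (-0.48), CXCL16 (-0.31) and CX3CL1 (0.27). For CXCL10 that difference was 1.19 with a 95% interval of -0.25 to 2.63, which does not show that the effects were equal. Without EGF replicate 2, CXCL16 was called (-0.38, edgeR's adjusted p = 0.0465).

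The order of the 5 group means differed between members. CXCL8 ran from cSNX1.3 (26.1 ± 5.49 CPM) and EGF (20.6 ± 1.48) down to WT (6.98 ± 0.327), ΔNLS (6.30 ± 0.639) and erlotinib (1.30 ± 0.369), and in this order the WT and ΔNLS libraries were the one pair of neighbours that overlapped. CX3CL1 ran from EGF (91.1 ± 1.04 CPM) through cSNX1.3 (74.4 ± 2.80), WT (64.4 ± 6.11) and ΔNLS (63.3 ± 6.04) to erlotinib (44.4 ± 4.47), again with overlap between WT and ΔNLS alone. CXCL16 ran from EGF (55.1 ± 5.69 CPM) through cSNX1.3 (53.3 ± 4.95), WT (46.4 ± 3.48) and erlotinib (38.8 ± 3.51) to ΔNLS (36.1 ± 3.07), and neighbours overlapped except WT and erlotinib.

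CXCL10 had another order, with WT first (2.40 ± 0.280 CPM), then EGF (0.699 ± 0.186), ΔNLS (0.558 ± 0.132), erlotinib (0.257 ± 0.120) and cSNX1.3 (0.0670 ± 0.0587), and EGF and ΔNLS alone overlapped. The closest erlotinib and cSNX1.3 libraries of CXCL10 each had 3 counts and were apart by scaling alone (0.123 and 0.109 CPM). CXCL1 ran from cSNX1.3 (1.36 ± 0.532 CPM) and EGF (1.16 ± 0.169) to ΔNLS (0.522 ± 0.243), WT (0.228 ± 0.0999) and erlotinib (0.114 ± 0.132), separated only between EGF and ΔNLS. For CXCL2 the neighbours overlapped except cSNX1.3 and erlotinib, and for CXCL3, CCL5 and CCL20 every pair of neighbours overlapped. The drug and line groups differ in handling as well as in EGFR, and levels across them were not tested.

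Over the 15 libraries CXCL8 varied together with CX3CL1, CXCL1 and CXCL3. Pearson's r of log2 CPM was 0.89 between CXCL8 and CX3CL1, 0.86 between CXCL1 and CXCL8 and 0.84 between CXCL3 and CXCL8, and it was 0.53 between CXCL2 and CXCL8. With CXCL10, whose counts are sparse, it was -0.12 for CXCL8 and -0.28 for CXCL1. Among genes that are not members, the profile most like CXCL8 was that of DHX15, an RNA helicase (0.99), followed by CAPZB for CXCL16 (0.96) and FOXQ1 for CX3CL1 (0.95) and, for members with fewer counts, RRP7BP for CXCL1 (0.94) and SEMA3C for CXCL10 (0.93). SEMA3C, a secreted semaphorin, had 36.8 ± 1.98 CPM in WT, 18.5 ± 1.88 in ΔNLS, 15.1 ± 0.923 with EGF, 11.6 ± 0.510 with erlotinib and 8.69 ± 0.828 with cSNX1.3, the group order of CXCL10 except for EGF and ΔNLS. For the other members the nearest were KLHL2 for CXCL3 (0.93), ZNF708 for CXCL2 (0.88), ZNF143 for CCL20 (0.84) and ZNF285 for CCL5 (0.78). The libraries fall into 5 groups that set most of these values, so they describe shared group differences, and each was picked as the highest among all others that averaged 1 CPM or more.

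Genes of pathways and processes linked to chemokines, outputs of these pathways included, were counted in lists chosen with earlier results of these data known. Their part in the chemokine results was not tested. Erlotinib lowered 14 of 17 genes of AP-1 and ERK output (median log2 fold change -2.21), with the largest changes in the ERK feedback inhibitors SPRY4 (-5.00) and DUSP6 (-4.89) and the AP-1 subunit FOSL1 (-4.41), and it raised 2. Among 17 NF-κB subunits, kinases and inhibitors it lowered 9 and raised 2 (median -0.36), the largest called changes being those of the inhibitors TNFAIP3 (-1.45) and CYLD (0.76) and the kinase MAP3K14 (-1.13). Of 8 tested NF-κB target genes it lowered 4, such as the apoptosis inhibitor BIRC3 (-1.44), the adhesion molecule ICAM1 (-1.30) and IER3 (-1.22), and raised 1 (median -0.76). These counts and medians stand beside 44.0% of all genes called, 21.2% called lower and a median of 0.01 over all genes tested.

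Regulators of message stability and interferon sensing moved in both directions under erlotinib, again beside 44.0% of all genes called. Of 10 genes of message decay and stability 6 fell and 2 rose (median -0.52), with the largest called changes in ZC3H12A (-0.92), ZFP36L2 (-0.90) and ZFP36 (-0.64). Of 15 interferon-sensing and IRF-STAT genes 4 rose and 3 fell (median 0.08), a share called close to that of all genes. TLR3 (2.11), STING1 (1.06) and IRF1 (0.67) rose, and CGAS, which averaged under 1 CPM and was named after its values were seen, fell (-1.29). Among 8 sheddases and chemokine-cutting proteases CTSS (1.05) and MMP14 (0.69) rose, RHBDF2, a partner of the sheddase ADAM17, fell (-0.86), and ADAM10 and ADAM17 were not called (0.12 and 0.07). Of the 4 chemokine receptors and related genes tested 2 rose and 1 fell, among them CCR3 (1.63) and the scavenger ACKR2 (-0.36).

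With cSNX1.3 the calls within these lists, beside 6.07% of all genes, were mainly in AP-1 and ERK output. edgeR called 0 of 17 NF-κB components (4 had an unadjusted p under 0.05), 0 of 8 NF-κB targets (2), 0 of 15 interferon-sensing genes (2), 0 of 10 genes of message decay and stability (1) and 0 of 4 receptors (0). In AP-1 and ERK output 5 of 17 rose and 2 fell (median log2 fold change 0.30). EGR1 (-1.75) and FOS (-1.20), transcription factors of the immediate early response, fell, while FOSL1 rose (1.13). RHBDF2 was the one call among 8 sheddases and proteases (0.55, edgeR's adjusted p = 0.000679).

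In ΔNLS vs. WT 7 of 15 interferon-sensing genes fell and 3 rose (median -0.22). Over all genes tested 41.4% were called and 21.0% were called lower, and the counts that follow stand beside these shares too. TLR3 (log2 fold change -0.95) and IFIH1 (-0.91), sensors of double-stranded RNA, fell and the DNA sensor gene CGAS rose (1.09, edgeR's adjusted p = 0.0118). NF-κB components were split, 3 higher and 4 lower of 17 (median 0.00), a share called close to that of all genes. TNFAIP3 (-0.88) and CYLD (-0.44) were lower and MAP3K14 (0.69) was higher. NF-κB targets were split too, 2 higher and 3 lower of 9 (median -0.19), with BIRC3 lower (-0.94) and IER3 (0.85) and ICAM1 (0.31) higher. AP-1 and ERK output held 7 higher and 5 lower of 17 (median -0.08), among them FOSL1 (0.88), DUSP4 (-0.82) and ATF3 (0.73).

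Among the genes that cut membrane-bound chemokines, ADAM10, a sheddase of CX3CL1 and CXCL16, fell in ΔNLS (log2 fold change -0.72, edgeR's adjusted p = 4.53e-07), CTSS fell (-1.31) and MMP14 rose (1.29), with 2 higher and 3 lower of 8 (median 0.09). Of 10 genes of message decay and stability 1 rose and 1 fell, KHSRP (0.32) and ZFP36L2 (-0.74), with a median of 0.06. The atypical receptor CCRL2 (-2.52) and ACKR2 (-0.51) were the 2 calls among 5 receptors (median -0.06), a share close to that of all genes. All counts of this paragraph stand beside 41.4% of all genes called and 21.0% called lower. In this comparison the 6 leukocyte markers summed to 25.7 to 37.1 CPM in WT and 37.9 to 42.0 in ΔNLS, nearly all of it CD14, and the 5 epithelial markers to 12563 to 14502 and 7764 to 9688 CPM, with 4 of them lower. The 4 NK cell markers summed to 0.387 to 0.694 CPM in WT and 1.17 to 1.53 in ΔNLS, again nearly all NCAM1, with KLRD1 at 0. Of 3 fibroblast markers the 1 tested was lower (log2 fold change -0.31), and of 3 endothelial markers 1 was higher (1.28) and 2 were not called. The part of these markers in the chemokine results was not tested.

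**Figure D4:**
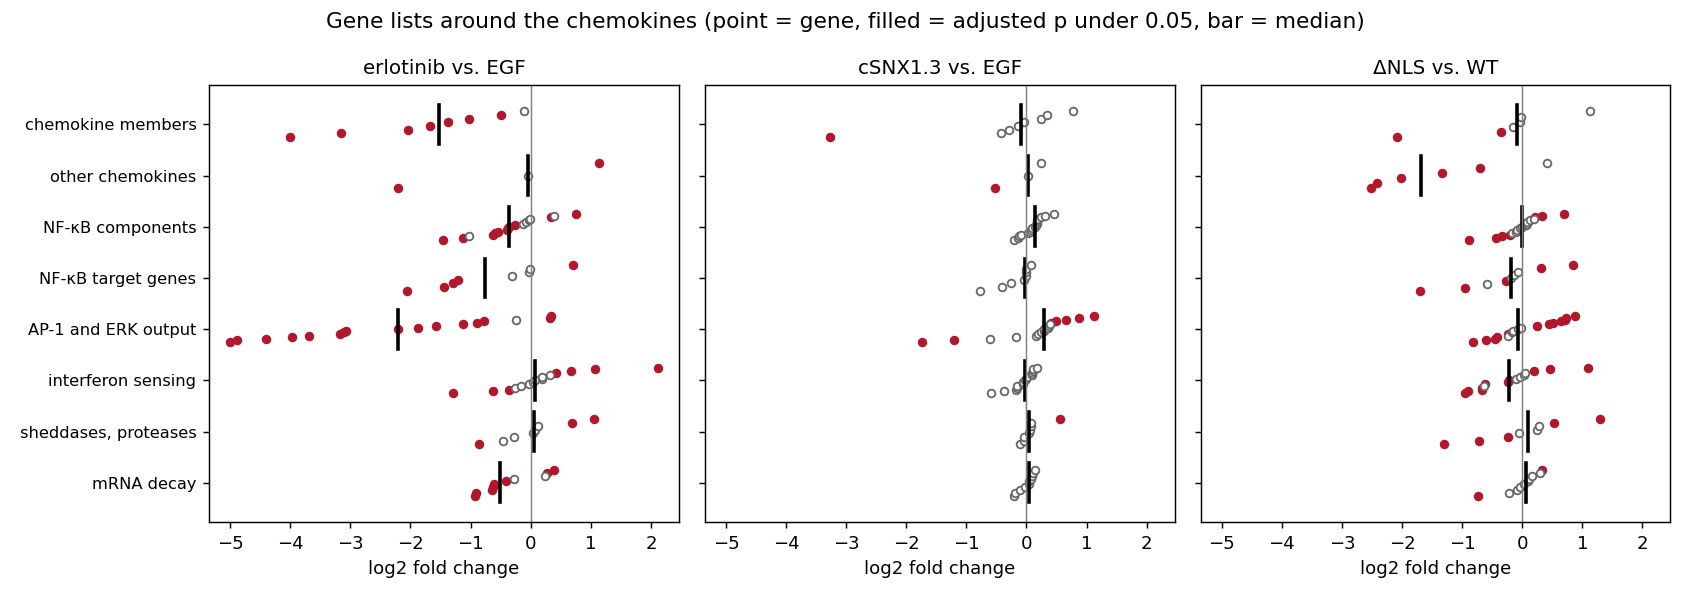
Log2 fold changes of the tested genes of 8 lists (the chemokine members first) in erlotinib vs. EGF, cSNX1.3 vs. EGF and ΔNLS vs. WT. Each point is a gene, filled where edgeR's adjusted p is under 0.05, and the black bar is the list's median; with erlotinib the median is -2.21 for AP-1 and ERK output and -1.52 for the members, and with cSNX1.3 it is 0.30 and -0.09.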

How the data were processed

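RNA of MDA-MB-468 cells in 5 groups (15 libraries) had been sequenced in read pairs. The authors trimmed reads with TrimGalore, aligned them to GRCh38 with STAR and let featureCounts count pairs on genes, strand ignored, and deposited raw counts for 61552 Ensembl genes (their annotation release is not given in the sources used here). Of these, 61399 were matched to GENCODE 44 for symbols and lengths. Counts were analysed in edgeR 4.0.16 (R 4.3.3): TMM scaling, filterByExpr, a robust quasi-likelihood test and Benjamini-Hochberg adjustment, with a threshold of 0.05, in fits of the 9 drug libraries (15738 genes), the 6 line libraries (15805) and, for differences between effects, all 15 (16524). The test was tested on simulated data. Total counts, 22915676 to 35900649 per library, limit what can be seen in the sparse members, and without strand overlapping genes are not told apart. Replicate pairs differed beyond sampling noise, so none was a copy.

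The members and gene lists were chosen with earlier results of these data known. Named besides the members were EGFR, up to 3 called genes per list and comparison with the largest change at a mean of at least 1 CPM, and the gene most like each member. CPM and TPM were computed from the counts, and log2 CPM for correlations used a prior count of 2. Alternatives were DESeq2 1.42.0 (size factors or test), other low-count filters and libraries, a stricter threshold of 0.01, the replicate number as a block, and each library left out in turn.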

Additional observations from a re-analysis of the deposited data

Results flagged for a closer look

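Differences between the effect of the ΔNLS mutation and that of erlotinib were found by an interaction test in 3 members. The difference of log2 fold changes was 4.30 for CXCL1, 3.86 for CXCL8 and 1.01 for CX3CL1, from edgeR effects of 1.14, -0.15 and -0.03 for ΔNLS vs. WT and of -3.16, -4.00 and -1.03 for erlotinib vs. EGF. None of these ΔNLS effects was called by itself, that of CXCL1 included (edgeR's adjusted p = 0.0660, overlapping libraries). Each difference kept its direction and its call when any 1 of the 12 libraries was left out, with ranges of 3.88 to 5.91, 3.71 to 4.07 and 0.94 to 1.09. The largest CXCL1 value was reached without erlotinib replicate 1, which held 9 of the 11 counts of that group. The drug and line experiments differ in cells, handling and EGFR level, and these cannot be told apart here.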

How the results depend on the processing

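Of the members' log2 fold changes under alternatives that kept every library, 290 of 301 kept their direction and side of the threshold, 8 lost the call, 3 gained it and none changed sign. Of those with 1 library left out, 348 of 394 kept both, 17 lost the call, 4 gained it and 25 changed sign, none of them called in the full set. The 301 values include the stricter threshold of 0.01, which reuses the main fold change and so could neither change a sign nor gain a call. Fits in which a member was not tested or had no adjusted p were not counted, among them CXCL10 by DESeq2 in cSNX1.3 vs. EGF. The number of members called in erlotinib vs. EGF was 7, became 4 at an adjusted p under 0.01 and 3 when at least 10 counts were asked of every library, since only 3 members were then tested, and was 4 to 8 with a library left out. It was 1 in cSNX1.3 vs. EGF, and 2 in fits of these 2 groups or of all 15 libraries (CXCL10 and CX3CL1). With at least 10 counts in every library, 0 of 3 were called by edgeR, of which 2 had an unadjusted p under 0.05, and CXCL10 was not tested. In ΔNLS vs. WT it was 2 to 3 with a library left out. In cSNX1.3 vs. erlotinib it was 7, and 3 of 3 tested and 4 of 4 tested with at least 10 counts and with these 2 groups alone. For the ΔNLS effect minus the cSNX1.3 effect it was 0 to 1 with a library left out. Signs changed with a library left out, with ranges, for CCL5 in erlotinib vs. EGF (-0.34 to 0.23), CXCL1 (-0.15 to 0.39), CXCL16 (-0.12 to 0.030), CCL5 (-1.20 to 0.051) and CCL20 (-0.46 to 0.26) in cSNX1.3 vs. EGF, CXCL2 (-0.23 to 0.12) and CX3CL1 (-0.10 to 0.050) in ΔNLS vs. WT, CCL5 (-1.09 to 0.16) in cSNX1.3 vs. erlotinib, CCL5 (-0.37 to 1.73) and CCL20 (-0.58 to 0.32) in ΔNLS minus cSNX1.3, and CCL5 (-0.69 to 1.42) in ΔNLS minus erlotinib. CXCL2 was called in the last of these without EGF replicate 2 (2.10, edgeR's adjusted p = 0.00744).

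Replicate numbers did not pair the samples: deviations of same-numbered libraries within an experiment correlated at -0.200 to 0.248 over 12 pairs. With the replicate number as a block, 7, 1, 2, 7, 0 and 3 members were called in the 6 comparisons in the order reported, and no call changed. Depth limits CXCL2, CXCL3, CCL2, CCL5 and CCL20 most.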
